A study of Mus musculus with 12 samples.

Results

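The 8 genes described here are *Ugt2a3*, *Ugt2b1*, *Ugt2b5*, *Ugt2b34*, *Ugt2b35*, *Ugt2b36*, *Ugt2b37* and *Ugt2b38*, a family of UDP-glucuronosyltransferases on mouse chromosome 5, out of 21911 protein-coding genes in the GENCODE M21 annotation of mm10 (GRCm38). Their acetylation was read from the ChIP-seq peaks that overlapped the gene body or the 5 kb on either side of the gene start by at least 1 bp. ChIP-seq for H3K9ac, the acetyl mark on lysine 9 of histone H3 that is found at active promoters, was carried out on livers of adult mice. Of the 6 H3K9ac libraries, 2 were of the strain C57BL/6J (B6), 2 of the strain MSM/Ms (MSM) and 1 of each reciprocal F1 hybrid, called F1 BM where the mother was B6 and the father MSM, and F1 MB in the opposite case. The mice carried no labelled treatment or transgene. B6 is the strain of the reference genome, and MSM was bred from wild mice caught in Japan. The parental libraries came from separate animals, and the F1 values have no replicate error.

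UDP-glucuronosyltransferases are enzymes of the endoplasmic reticulum that attach glucuronic acid, taken from UDP-glucuronic acid, to bilirubin, steroids, bile acids and drugs, which makes them soluble enough to leave in bile or urine. The liver is the main site of the reaction. Genes of the Ugt2 family arose by repeated duplication and lie side by side, and each Ugt2b gene carries its own promoter and full set of exons, in contrast to the Ugt1a genes, whose alternative starts share their last exons.

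The peak lists were not of equal length. B6 replicate 1 was the longest with 22968 peaks and B6 replicate 2 the shortest with 11619, and the other 4 lists held 13235 to 20173. A gene without a peak therefore may have been too weak for that list, and no read counts were used here to tell the difference. All 9 hepatocyte marker genes found among the annotated coding genes (such as *Alb* and *Ttr*) had a peak in every list, whereas markers of Kupffer cells, cholangiocytes and lymphocytes had a peak for at most 1 gene each and those of stellate cells for at most 2 of 7. Of the 7 endothelial markers, including *Stab2* and *Kdr*, 6 had a peak in B6 replicate 1 and 0 in B6 replicate 2, while MSM replicates 1 and 2 had 4 and 6, F1 BM had 6 and F1 MB had 3. The labels do not give the sex of the mice. The window of *Xist*, which silences the inactive X chromosome of females, held a peak in all 6 lists, and none of 4 Y-linked genes did in any list. Over the whole Y chromosome, the B6 lists held 0 peaks each, those of MSM replicates 1 and 2 held 8 and 4, that of F1 BM 9 and that of F1 MB 1. Of 12 genes known to be higher in female liver, such as *Cux2*, 11 and 7 had a peak in B6 replicates 1 and 2 against 4 and 5 in MSM replicates 1 and 2, with 10 for F1 BM and 5 for F1 MB. Of 10 genes known to be higher in male liver, such as *Cyp7b1*, the numbers were 4, 2, 6, 5, 6 and 4 in the same order. The part of these differences in the results below was not tested, and in bulk liver fewer cells of a type cannot be told apart from a lower level per cell.

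The Ugt2 genes spanned chr5:86889767-87424203, in the order *Ugt2b34*, *Ugt2b1*, *Ugt2b35*, *Ugt2b36*, *Ugt2b5*, *Ugt2b37*, *Ugt2a3* and *Ugt2b38*. In GENCODE M21 (GRCm38), *Ugt2b34* chr5:86889767-86906937, *Ugt2b1* chr5:86916638-86926530, *Ugt2b36* chr5:87065927-87092555 and *Ugt2b5* chr5:87124960-87140318 lie on the minus strand. *Ugt2b37* chr5:87240493-87254804, *Ugt2a3* chr5:87324972-87337195 and *Ugt2b38* chr5:87409942-87424203 do as well, whereas *Ugt2b35* chr5:87000860-87013275 lies on the plus strand. *Ugt2b34* and *Ugt2b1* were 9.7 kb apart, and the other neighbouring pairs were separated by 32.4 to 100.2 kb. Exon 1 of every gene was similar in length, from 736 bp in *Ugt2b5* to 758 bp in *Ugt2b37*.

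Acetylation marked the start of most of these genes. A peak was found in all 6 lists for 6 of 8 genes, *Ugt2b34*, *Ugt2b1*, *Ugt2b35*, *Ugt2b36*, *Ugt2b5* and *Ugt2a3*, and for 28.5% of all protein-coding genes. The same 6 had a peak within 1 kb of the start in all lists, against 23.6% of all genes. *Ugt2b38* had a peak in 5 lists and lacked one in B6 replicate 2, and *Ugt2b37* had a peak only in the MSM lists. By library, 7 genes had a peak in B6 replicate 1, 6 in B6 replicate 2, 8 in each MSM replicate and 7 in each F1 hybrid. The 8 windows held 9 to 15 peaks per list, and the summed length under them was 18.5 and 11.9 kb in B6 replicates 1 and 2 against 14.6 and 14.5 kb in MSM replicates 1 and 2, with F1 BM at 18.9 kb and F1 MB at 12.0 kb. The 2 shortest lists, B6 replicate 2 and F1 MB, gave the lowest sums.

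The acetylated regions lay on the gene side of the start. In all 43 combinations of gene and list with a peak within 1 kb of the start, the summit of the strongest such peak was downstream, from 230 to 1306 bp into the gene. Its upstream edge fell between 80 bp upstream and 525 bp downstream of the start. Within 2 kb on either side of the start, at least 90% of the length under peaks was downstream in 41 of the 43 combinations. The exceptions were *Ugt2b35* in B6 replicate 1 (77.6%) and in F1 BM (83.2%), both with a separate peak just upstream of the start. Of the 6 genes with a start peak in all lists, 5 reached 90% in all of them, compared with 24.0% of the 5166 genes with such a peak. The measure moved with the list, since its median over all genes with a start peak ranged from 75.5% in B6 replicate 1 to 100% in B6 replicate 2 and F1 MB. It was chosen after the peak positions had been seen.

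**Figure D1:**
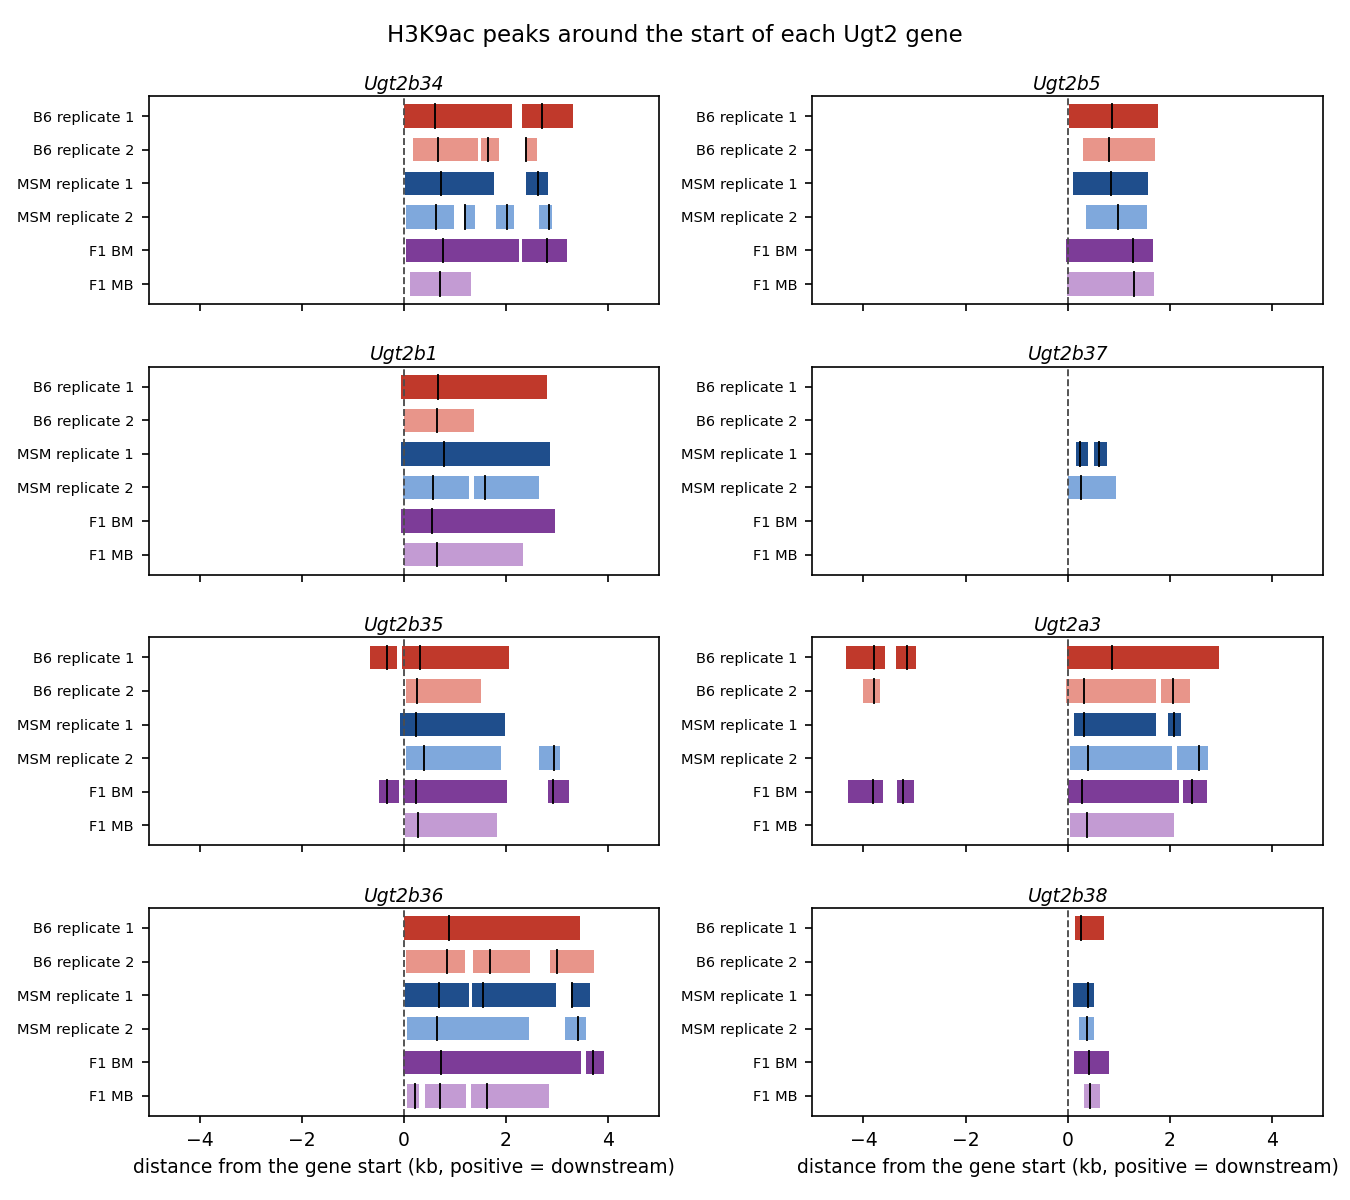
H3K9ac peaks within 5 kb of the start of each Ugt2 gene, with distance from the start in kb on the x axis (positive is downstream) and 1 row per library. Bars are peaks, black ticks are summits, and the dashed line is the start; nearly all bars lie to the right of it, *Ugt2b37* has bars only in the MSM rows, and bars about 4 kb upstream of *Ugt2a3* appear only in the B6 and F1 BM rows.

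The summits lay over exon 1 in 32 of the 43 combinations. *Ugt2b5* stood apart, with 0 of 6 summits in exon 1 and all of them 811 to 1306 bp from the start, in intron 1. In the reference genome, 20.2% of the 50-base stretches of its exon 1 occur once, against 91.4% in the 1 kb after it. *Ugt2b38*, at 19.7% in exon 1, had 5 of 5 summits there. The part of this in the summit positions was not tested. In *Ugt2b35* all 6 summits lay in exon 1, at 230 to 402 bp, and in *Ugt2b34*, *Ugt2b1* and *Ugt2a3* 5 of 6 did. In *Ugt2b36* the peaks reached 2842 to 3929 bp into the gene depending on the library. The length under its peaks was 3.45 and 3.14 kb in B6 replicates 1 and 2 against 3.265 and 2.82 kb in MSM replicates 1 and 2, with F1 BM at 3.84 kb and F1 MB at 2.56 kb. B6 and MSM overlapped in this length, with a difference (MSM minus B6) of -255 bp. In lists cut to equal peak number or equal covered length they did not overlap, and the difference was -651 bp. *Ugt2b38* and *Ugt2b37* had the shortest regions, at most 0.695 kb and 0.935 kb.

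**Figure D2:**
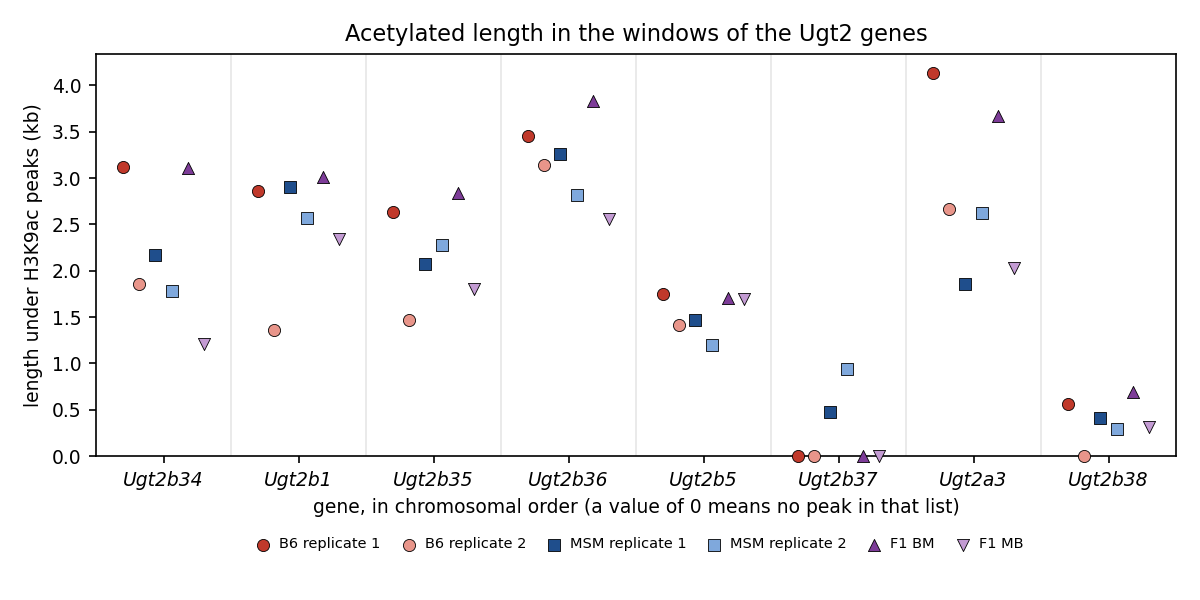
Length under H3K9ac peaks (kb, y axis) in the window of each Ugt2 gene (x axis), 1 point per library. *Ugt2b36* and *Ugt2a3* reach the greatest lengths, *Ugt2b37* is above 0 only in MSM, and *Ugt2b38* stays below 0.7 kb in every library.

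Fold enrichment, the authors' ratio of the signal at a peak summit over its background, was at most 11.6 over the family. The highest fold in the window of *Ugt2b36* was 7.16 and 9.44 in B6 replicates 1 and 2 against 7.03 and 10.1 in MSM replicates 1 and 2, with F1 BM at 8.44 and F1 MB at 5.36. That of *Ugt2b1* was 8.13 and 6.39 in B6 against 6.88 and 7.27 in MSM, with F1 BM at 8.03 and F1 MB at 5.71. The strains overlapped at both genes. *Ugt2b35* had 8.75 and 7.34 in B6 against 6.11 and 7.85 in MSM, with F1 BM at 5.96 and F1 MB at 4.67. *Ugt2b34* had 10.5 and 5.12 in B6 against 5.03 and 5.93 in MSM, with F1 BM at 6.28 and F1 MB at 4.72. Again the strains overlapped at both. *Ugt2b34* also had a weaker peak further into the gene, with a fold of 5.46 and 3.10 in B6 against 2.73 and 4.29 in MSM and 3.44 in F1 BM, and none in F1 MB. Folds were on different ranges in the libraries, with a median over the whole list of 3.38 in F1 BM and of 4.49 to 5.23 in the others, so each gene was also ranked among all protein-coding genes of its library. Genes without a peak entered this ranking as 0, so even a weak peak ranked above all of them. *Ugt2b38* in F1 MB, with a fold of 2.74, was at percentile 63.4. The percentiles therefore also depend on the length of the list. The median percentile of the 8 genes was 76.2 and 87.3 in B6 against 77.5 and 81.2 in MSM, with F1 BM at 96.2 and F1 MB at 76.4, and the highest was 98.6, for *Ugt2b36* in B6 replicate 2.

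**Figure D3:**
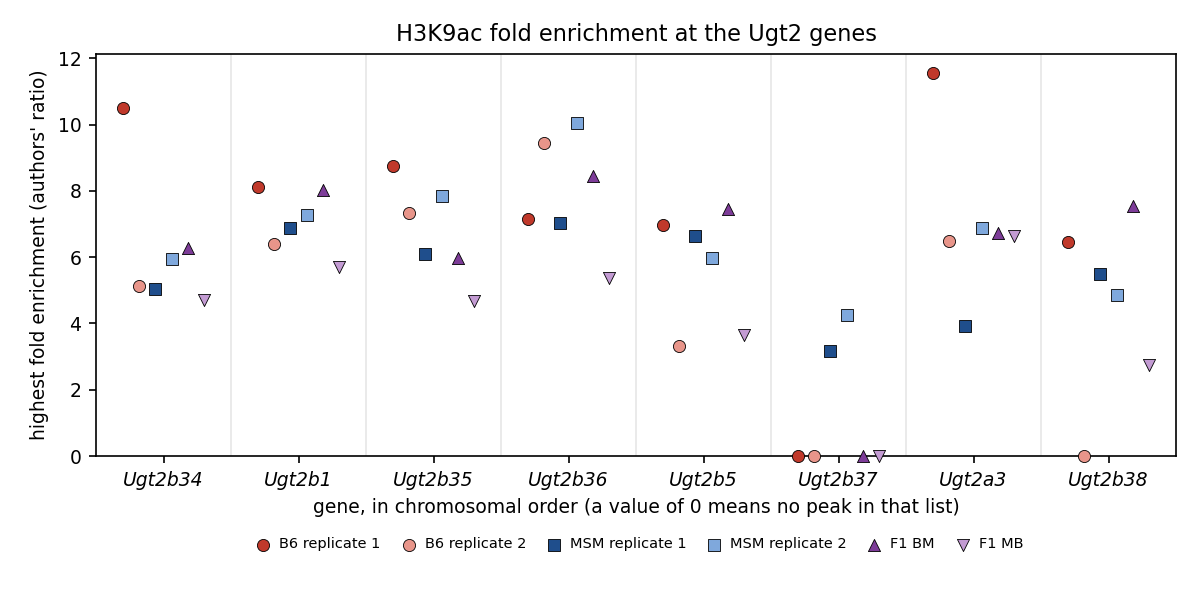
Highest fold enrichment (authors' ratio, y axis) in the window of each Ugt2 gene (x axis), 1 point per library, with 0 where a list has no peak. The points of B6 and MSM overlap except at *Ugt2b37*, where the MSM points are at 3.18 and 4.26 and the others at 0.

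The copies were not equally alike. Over the 28 gene pairs, the coding sequence in GRCm38 was 65.7 to 97.0% identical in global alignments that counted gaps. *Ugt2b5*, *Ugt2b37* and *Ugt2b38* formed the closest trio, with 94.1 to 97.0% identity. Pairs of these with *Ugt2b35* or *Ugt2b36*, and of the latter with each other, had 85.9 to 88.4%. *Ugt2a3* was the most distant, at 65.7 to 67.8%. The 250 bases upstream of the start followed the same grouping, with 72.6 to 84.8% identity in the trio, 49.6 to 59.3% in the pairs with *Ugt2b35* and *Ugt2b36*, and 42.2 to 48.5% in all other pairs.

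**Figure D4:**
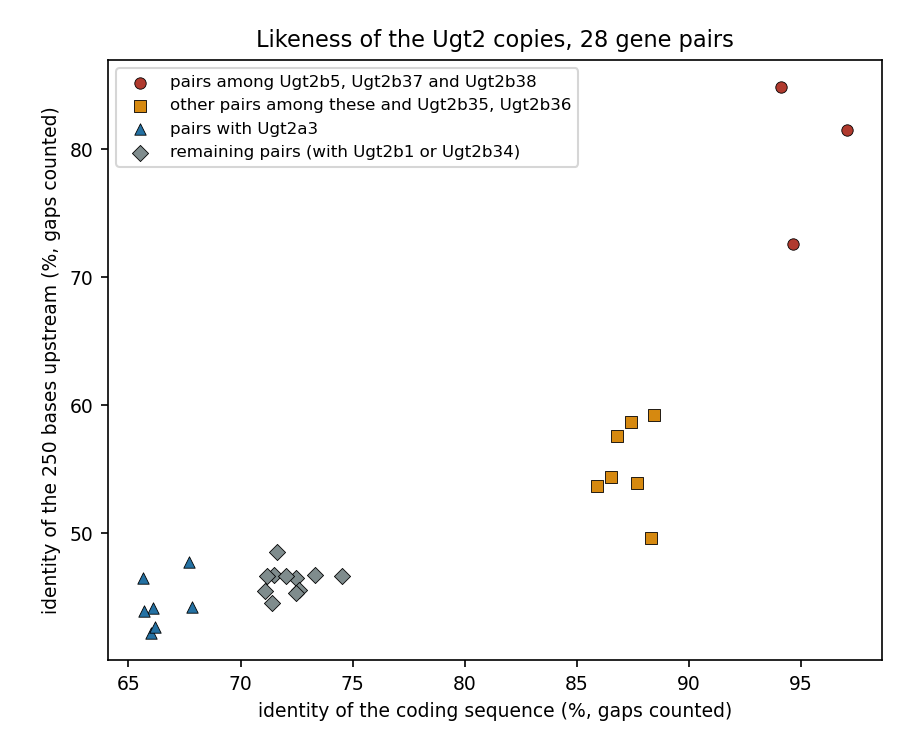
Identity of the 250 bases upstream of the start (%, y axis) against identity of the coding sequence (%, x axis), 1 point for each of 28 pairs of Ugt2 genes, gaps counted in both. The 3 pairs among *Ugt2b5*, *Ugt2b37* and *Ugt2b38* lie apart at the upper right, at 94.1% or more and 72.6% or more.

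The upstream sequences of the trio are shown because these genes differed in the number of lists with a start peak. It was 6 for *Ugt2b5*, 5 for *Ugt2b38* and 2 for *Ugt2b37*. They are given 5′ to 3′ on the minus strand of GRCm38.p6 from RefSeq, at chr5:87140341-87140590, chr5:87254789-87255038 and chr5:87424204-87424453, and end at the base before the RefSeq start, which lies 22 bases from the GENCODE start used for the peaks in *Ugt2b5*, 16 bases in *Ugt2b37* and 0 in *Ugt2b38*. Capitals mark runs of at least 15 bases that are identical in all 3.
Ugt2b5: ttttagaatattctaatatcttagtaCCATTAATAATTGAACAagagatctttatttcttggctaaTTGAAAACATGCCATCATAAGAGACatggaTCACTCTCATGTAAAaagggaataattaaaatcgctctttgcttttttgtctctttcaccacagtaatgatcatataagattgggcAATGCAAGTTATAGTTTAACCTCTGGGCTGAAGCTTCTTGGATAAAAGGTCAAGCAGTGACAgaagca
Ugt2b37: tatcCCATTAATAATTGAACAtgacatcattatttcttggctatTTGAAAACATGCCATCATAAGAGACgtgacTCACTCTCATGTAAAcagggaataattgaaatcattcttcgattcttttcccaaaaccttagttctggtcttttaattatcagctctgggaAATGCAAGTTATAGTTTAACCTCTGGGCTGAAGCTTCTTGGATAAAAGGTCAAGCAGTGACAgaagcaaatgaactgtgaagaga
Ugt2b38: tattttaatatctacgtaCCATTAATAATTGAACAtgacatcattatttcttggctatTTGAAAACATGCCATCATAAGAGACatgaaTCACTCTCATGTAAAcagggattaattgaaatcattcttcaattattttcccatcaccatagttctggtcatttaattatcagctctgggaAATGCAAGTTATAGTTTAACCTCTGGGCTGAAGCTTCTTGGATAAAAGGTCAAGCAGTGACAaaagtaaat
The shared runs took up 119 of 250 bases. The longest was 62 bases, placed from 68 to 7 bases before the start of *Ugt2b5*, from 85 to 24 before that of *Ugt2b37* and from 71 to 10 before that of *Ugt2b38*. Among 32851 promoter entries of the RefSeq table it was found in these 3 genes only. *Ugt2b37*, without a peak in B6, and *Ugt2b5*, with a start peak in every list, both hold this stretch in the B6 reference. The MSM sequence was not examined, and a link of the stretch to acetylation was not tested.

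Short motifs of liver transcription factors were searched as exact letters on both strands from 250 bases before to 50 after the RefSeq start. The FOXA motif TGTTTAC was present in *Ugt2b35*, *Ugt2b37* and *Ugt2b38*, 3 of 8 genes, and in 3.65% of all promoters. The C/EBP motif TTGCNNAA was present in *Ugt2b1*, *Ugt2b36*, *Ugt2b5* and *Ugt2a3*, 4 of 8, and in 10.8% of all promoters. The TATA box TATAAA (13.6% of all promoters) and the HNF4 motif CAAAGTCC (1.42%) were found in none of the 8. These matches are descriptions of letters and were not compared with binding data. All 8 promoters were poor in CpG, with 0 to 2 CpG dinucleotides in 300 bases, against a median of 7 over all promoters. Of all promoters, 23.3% had no more than 2.

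The reads were 50 bp long and sequenced in pairs, so words of 50 bases were used to ask how much of each gene is single in the genome. Under the start regions of *Ugt2b34*, *Ugt2b1*, *Ugt2b35*, *Ugt2b36* and *Ugt2a3*, at least 98.7% of the 50-base words of GRCm38 occurred once in the genome. The share was 85.4% in the *Ugt2b37* region, 61.3% in the *Ugt2b5* region and 15.1% in the *Ugt2b38* region. In exon 1 it was 20.2% for *Ugt2b5*, 19.7% for *Ugt2b38* and 80.7% for *Ugt2b37*. Allowing 2 mismatches, 94.4% of the sampled words of *Ugt2b38* exon 1 had a copy at *Ugt2b5* and 42.3% at *Ugt2b37*.

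A stretch of 150 coding bases of exon 1 (coding bases 321 to 470), centred on the highest *Ugt2b38* summit, shows this. It is read from GRCm38 on the minus strand at chr5:87423702-87423851 (*Ugt2b38*), chr5:87139837-87139986 (*Ugt2b5*) and chr5:87254301-87254450 (*Ugt2b37*), with capitals where a base differs from *Ugt2b38*.
Ugt2b38: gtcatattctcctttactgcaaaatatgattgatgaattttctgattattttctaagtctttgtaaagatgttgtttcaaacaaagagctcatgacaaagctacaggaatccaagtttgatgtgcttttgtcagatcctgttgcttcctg
Ugt2b5: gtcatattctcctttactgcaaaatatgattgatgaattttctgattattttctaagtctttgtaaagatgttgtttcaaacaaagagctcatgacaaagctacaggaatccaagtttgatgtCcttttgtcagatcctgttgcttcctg
Ugt2b37: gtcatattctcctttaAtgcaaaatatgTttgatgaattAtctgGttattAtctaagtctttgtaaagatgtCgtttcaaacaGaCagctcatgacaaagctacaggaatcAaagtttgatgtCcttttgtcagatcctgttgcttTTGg
*Ugt2b5* differed from *Ugt2b38* at 1 of the 150 bases and *Ugt2b37* at 13.

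**Figure D5:**
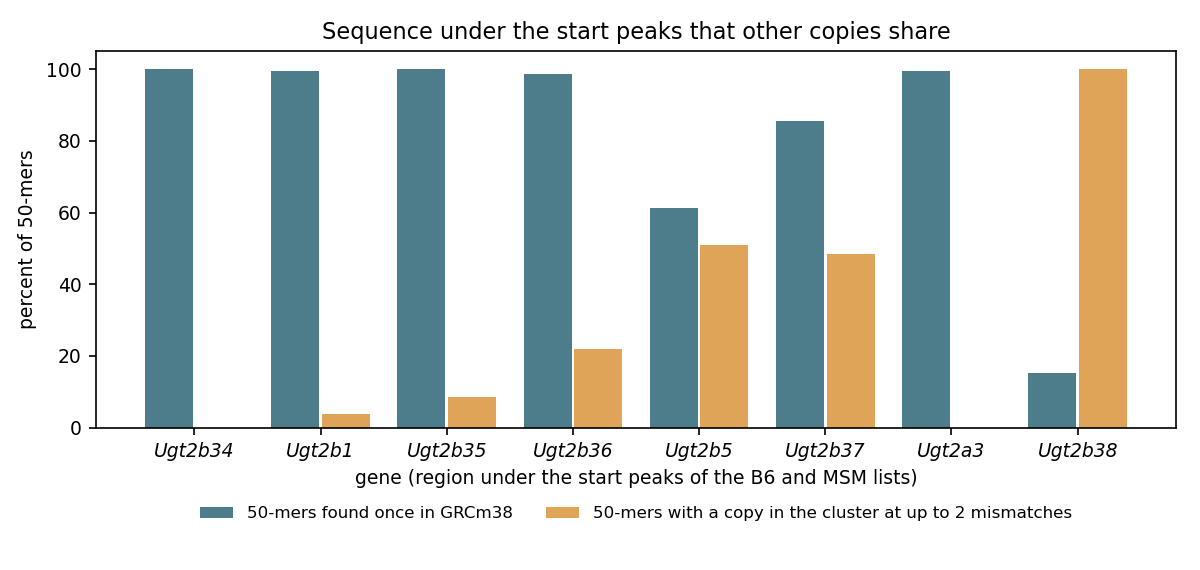
Percent of 50-base words (y axis) under the start region of each Ugt2 gene (x axis) that occur once in GRCm38, and percent with a copy elsewhere in the cluster at up to 2 mismatches. *Ugt2b38* has 15.1% single words and a near copy for 100%, *Ugt2b5* and *Ugt2b37* lie between, and the other 5 genes are at 98.7% or more single words. Of these 5, *Ugt2b36* has the largest share of words with a near copy, 22.0%.

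The peaks of *Ugt2b38* lay over this duplicated exon. They covered 559 bp of exon 1 in B6 replicate 1, and 410 and 295 bp in MSM replicates 1 and 2, with F1 BM at 632 bp and F1 MB at 316 bp. In the 1 kb that follows exon 1, where 99.7% of the words of *Ugt2b38* are single, peaks covered 63 bp in F1 BM and 0 bp in the other lists. In *Ugt2b5* both intervals were covered. Peaks covered 711 and 433 bp of its exon 1 in B6, 638 and 382 bp in MSM and all 736 bp in each hybrid. The 1 kb after its exon 1, with 91.4% single words, was covered over 1000 and 976 bp in B6 replicates 1 and 2 against 834 and 820 bp in MSM, with F1 BM at 944 bp and F1 MB at 956 bp. For *Ugt2b37* this interval (98.8% single words) was covered over 4 and 192 bp in MSM replicates 1 and 2 and over 0 bp elsewhere. Whether reads of one copy were placed at another was not tested. In the 5 genes with almost wholly single words, the same interval was covered over at least 452 bp in every list. Words with a copy in the cluster at up to 2 mismatches made up at most 10.4% of this interval there, in *Ugt2b36*.

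The comparison of the parental strains asked whether acetylation of these genes differs between B6 and MSM. A gene was called higher in a strain when both of its libraries exceeded both libraries of the other. By length under peaks, 1 of 8 genes, *Ugt2a3*, was higher in B6 and 1, *Ugt2b37*, in MSM, against 11.6% and 4.97% of the 11446 genes with a peak in at least 1 parental list. By highest fold, 0 were higher in B6 and 1, *Ugt2b37*, in MSM, against 9.29% and 8.57%. By percentile of the fold, *Ugt2b34* and *Ugt2a3* were higher in B6 (15.4% of all genes) and *Ugt2b5*, *Ugt2b37* and *Ugt2b38* in MSM (18.6%). No single gene could pass 0.05, since the smallest two-sided exact permutation p of 2 libraries against 2 is 0.333. The counts rested on single libraries. Without B6 replicate 2, the shortest list, 6 of 8 genes were higher in B6 by either measure, and so were 84.2% of all genes by length and 69.8% by fold. Without B6 replicate 1, the longest list, 4 of 8 were higher in MSM by either measure, against 61.2% of all genes by length and 60.2% by fold. The counts of all genes thus moved with the lists in the same way. Without MSM replicate 1, 4 of 8 were higher in B6 by length (17.9% of all genes) and 2 in MSM by fold (20.3%). Without MSM replicate 2, 4 of 8 were higher in B6 by fold (17.4%) and 2 in MSM by length (10.2%).

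*Ugt2b37* was the gene with a peak in 1 strain only. Its highest fold was 3.18 in MSM replicate 1 and 4.26 in MSM replicate 2, and it had no peak in B6 replicate 1, B6 replicate 2, F1 BM or F1 MB. The length under its peaks was 0.471 and 0.935 kb in MSM, a mean of 703 ± 328 bp (SD, n = 2), against 0 bp in B6. Both B6 values were 0 because no peak was listed, so that the spread within B6 is not known. The difference is therefore not read against a pooled SD here (exact permutation test, two-sided p = 0.333). The MSM-specific region was chr5:87253855-87254789 and lay mostly over exon 1. Allowing 2 mismatches, 46.1% of its sampled 50-base words had a copy at *Ugt2b38* and 37.1% at *Ugt2b5*. The part of this in the result was not tested. The peaks ranked low in their lists. When every list was cut to the 11619 peaks of the shortest list by q-value, *Ugt2b37* kept its peak in MSM replicate 2 and lost both in MSM replicate 1, so that the call was lost. In lists cut to equal covered length it had no peak in any parental list.

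*Ugt2a3*, whose human counterpart glucuronidates bile acids, was covered over 4.13 and 2.66 kb in B6 replicates 1 and 2 and over 1.85 and 2.625 kb in MSM replicates 1 and 2, with F1 BM at 3.67 kb and F1 MB at 2.03 kb. The strains did not overlap, but B6 replicate 2 and MSM replicate 2 were nearly equal. B6 averaged 3398 ± 1040 bp (SD, n = 2) and MSM averaged 2239 ± 546 bp (SD, n = 2), a difference of -1159 bp beside a pooled SD of 831 bp (exact permutation p = 0.333). It was -423 bp without B6 replicate 1, -1894 bp without B6 replicate 2 and -772.5 bp without MSM replicate 1. The fold was 11.6 and 6.50 in B6 against 3.92 and 6.89 in MSM, with F1 BM at 6.72 and F1 MB at 6.63, and overlapped between the strains (exact permutation p = 0.667). Within the gene body alone the length no longer separated the strains, with a difference of -394.5 bp. Within 1 kb of the start the difference was only -111 bp, and the strains did not overlap.

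Part of this length came from a B6-specific region upstream of *Ugt2a3*, between annotated genes, at chr5:87340778-87341534. Its peaks had a fold of 7.47 in B6 replicate 1, 4.04 in B6 replicate 2 and 4.64 in F1 BM, and no peak was listed there in MSM or F1 MB. In lists cut to equal covered length no B6-specific region was left in the 8 windows. The region is shown because it was the only B6-specific one in the 8 windows. Of its bases, 94.3% are soft-masked as repeats in the assembly, and 84.2% of its 50-base words were single in the genome. The sequence is the central 300 bases of the stretch that both B6 lists share, at chr5:87340885-87341184 on the minus strand of GRCm38. Capitals mark 2 matches to the TATA box.
Ugt2a3 upstream region: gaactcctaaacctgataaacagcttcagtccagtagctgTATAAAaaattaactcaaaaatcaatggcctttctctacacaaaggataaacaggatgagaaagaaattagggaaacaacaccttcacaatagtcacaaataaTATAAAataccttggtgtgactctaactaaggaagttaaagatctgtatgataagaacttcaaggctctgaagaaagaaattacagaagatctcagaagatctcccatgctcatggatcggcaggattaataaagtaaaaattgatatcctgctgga
In each of the 3 libraries the summit lay between -3806 and -3798 bp relative to the start of *Ugt2a3*. These 3 libraries were also those with a peak at the most female-biased liver genes, 7 to 11 of 12 against 4 or 5 in the MSM and F1 MB libraries, and the part of this in the result was not tested.

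By length and by fold in the full lists, the strains overlapped at the remaining 6 genes. In lists cut to equal peak number or equal covered length, *Ugt2b34* and *Ugt2b36* were longer in B6. The percentile of the fold, with its calls given above, separated the strains at *Ugt2b34*, *Ugt2b5* and *Ugt2b38*. At *Ugt2b38* it was 68.8 in B6 replicate 1 and 0 in B6 replicate 2 against 75.4 and 69.6 in MSM replicates 1 and 2. There B6 replicate 1 and MSM replicate 2 were nearly equal, and the 0 stands for a missing peak in the shortest list. *Ugt2b38* had a fold of 6.45 in B6 replicate 1, no peak in B6 replicate 2, 5.50 and 4.86 in MSM, with F1 BM at 7.54 and F1 MB at 2.74, so that both extremes of the parents were B6 libraries. *Ugt2b5* had 6.97 and 3.33 in B6 against 6.63 and 5.98 in MSM, with F1 BM at 7.45 and F1 MB at 3.64. The MSM values lay between those of B6. For the lengths of *Ugt2b34*, *Ugt2b1*, *Ugt2b35*, *Ugt2b36* and *Ugt2b38* the difference was below the pooled within-strain SD, and for *Ugt2b5* it was -244.5 bp beside an SD of 219 bp (exact permutation p from 0.667 to 1 for these 6 genes).

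Merging the 4 parental lists gave 13 regions in the windows of the 8 genes. Of these, 7 were shared by all 4 parental lists, against 30.1% of the 25808 regions of the whole genome. There was 1 B6-specific region (3.29% of all regions) and 1 MSM-specific region (3.38%), both described above. Leaving out B6 replicate 2 gave 3 B6-specific regions, with 29.6% of all regions then B6-specific. There were 2 MSM-specific regions when B6 replicate 1, MSM replicate 1 or MSM replicate 2 was left out, against 22.1%, 8.79% and 8.52% of all regions. Without MSM replicate 2 no new site appeared, since both were the separate *Ugt2b37* peaks of MSM replicate 1.

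Between the 8 windows, 10 further regions were found within the cluster, of which 1 was shared by all 4 parental lists. That region, chr5:87377634-87379915 over the unprocessed pseudogene *Gm21049*, had a fold of 5.87 and 4.89 in B6 against 8.01 and 7.46 in MSM, with F1 BM at 5.56 and F1 MB at 6.55. The MSM values were above both B6 values. Its 50-base words were single in 99.4% of cases, and 10.3% of the sampled words had a near copy at *Ugt2b36*. An MSM-specific region at chr5:86941494-86942163, between annotated genes, had a fold of 3.37 and 3.49 in MSM, with F1 BM at 2.89 and F1 MB at 2.81, and no peak in B6. It was the only strain-specific region of the cluster with a peak in both hybrids.

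Some genes beside the cluster had peaks in all lists and others had none. *Ugt2a1*, known from the olfactory epithelium, and *Ugt2a2*, together with *Gm43638* and the serine protease gene *Tmprss11e*, had no peak in any list. *Ythdc1*, which encodes a reader of methylated adenosine in RNA, had peaks in all 6 lists with a fold of 4.57 to 8.25. The sulfotransferase genes *Sult1b1* and *Sult1d1* also had peaks in all 6, with folds of 4.66 to 9.76 and of 4.29 to 8.10. *Sult1e1*, the estrogen sulfotransferase, had a peak in F1 BM only, with a fold of 3.73.

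In a list of 46 genes for conjugation enzymes, their cofactors, export pumps and the transcription factors known to act on them, 35 had a peak in all 6 lists (28.5% of all protein-coding genes did) and 41 in at least 1 parental list. Of these 41, 6 were higher in B6 and 4 in MSM by length, beside 11.6% and 4.97% of all genes tested. By fold, 4 were higher in B6 and 5 in MSM, beside 9.29% and 8.57%. The Ugt1a genes of the list overlap each other and share peaks, so none of these counts, nor the 35 and 41, is of independent genes. Both B6 counts include *Ugt1a1*, *Ugt1a2* and *Ugt1a5*. Only *Ugt1a1*, *Ugt1a2*, *Ugt1a5* and *Sult2a8* were higher in the same strain by both measures. *Ugt1a1*, the bilirubin-conjugating enzyme, had a fold of 6.64 and 4.25 in B6 against 2.96 and 3.19 in MSM, with F1 BM at 2.82 and F1 MB at 3.05. The B6 values were above all others, and *Ugt1a2* and *Ugt1a5*, whose gene bodies contain the same peaks, are not independent of it. *Sult2a8*, a bile acid sulfotransferase, had 6.78 and 5.70 in B6 against 7.50 and 7.61 in MSM, with F1 BM at 6.04 and F1 MB at 4.26. Its MSM values were above all others. Among the highest mean folds of the list were those of the hepatocyte factor *Hnf4a* (13.9), the conjugate export pump gene *Abcc2* (13.3) and *Ppara* (13.15), the receptor for fatty acids, above every value of the Ugt2 genes.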

How the data were processed

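H3K9ac ChIP-seq was analysed in 6 liver libraries of a series of 12 samples, and the input libraries are not analysed here. The authors deposited 1 peak list per library, with peaks called per library and not on pooled replicates. The submitters' processing notes name Trim Galore, HISAT2, SAMtools and MACS2 with mm10 (GRCm38), whereas the study's methods name Bowtie 2 for alignment. Versions and peak-calling settings are not given in the sources used here. MSM reads were aligned to the B6 reference sequence, which may lower MSM signal where the strains differ. Among near copies it may also raise the signal of a gene with reads of another, which was not tested. Per the labels and the file format, the deposited columns hold a score, the fold enrichment (a ratio), the −log10 p-value, the −log10 q-value and the summit offset. The fold and the −log10 q-value were used, and no listed q-value was above 0.05. The lists hold no read counts, so that depth per window is unknown, and the number of peaks per list and 2 libraries per parental strain limit the precision.

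Peaks were joined to GENCODE M21 genes in Python 3.11.15 with numpy 2.4.6. A window was the gene body plus 5 kb on either side of the start, with an overlap of at least 1 bp. Covered length, highest fold and its percentile among the genes of the library were taken per gene, with 0 where no peak was listed. Strains were compared by exact permutation over the 6 assignments of 4 libraries. Regions were the union of the parental peaks. Words of 50 bases were counted in GRCm38 on both strands, and every 10th was searched for copies in the cluster with up to 2 mismatches. RefSeq promoters matched all 8 genes. Alignments used Biopython 1.88 (match 1, mismatch -1, gap open -4, gap extension -0.5), and figures matplotlib 3.10.9. Coding sequences stood in for proteins, which were not analysed here. All 8 genes are named, with coding genes within 200 kb of the outermost, pathway genes higher in the same strain by both measures, and the 4 of highest mean fold. Some items under these rules are not reported here. Scripts were tested on simulated data. The alternatives were a stricter −log10 q of 5, lists cut to equal peak number or covered length, other windows, percentiles, leaving out each library and a replicate block. The labels do not say that equal replicate numbers pair libraries of the strains. The genes and lists were chosen with earlier results of these data known.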

Additional observations from a re-analysis of the deposited data

How the results depend on the processing

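The 6 genes with a peak in every list stayed 6 under all alternatives tried except the lists cut to equal covered length, where 5 did, and ranged from 6 to 7 when single libraries were left out. The count of genes longer in B6 went from 1 to 3 in lists cut to equal peak number or to equal covered length. It went to 2 at a −log10 q of at least 5 and to 0 in the gene body alone. The genes gained were *Ugt2b34* and *Ugt2b36* in both kinds of cut list, and *Ugt2b36* at the stricter q. Shares of all genes under these settings are not given here, so the counts are not read as particular to the 8 genes. The count longer in MSM went from 1 to 0 in both kinds of cut list. As percentiles of the fold, the count higher in B6 went from 0 to 2 (15.4% of all genes) and that higher in MSM from 1 to 3 (18.6%). In lists cut to equal peak number, the count higher in MSM by fold went to 0, with no share of all genes given here. In lists cut to equal covered length it stayed 1, but the gene was *Ugt2b5*, and *Ugt2b37* had no peak left. The B6-specific region was lost (0) in lists cut to equal covered length, in the gene body and in the 1 kb window. The MSM-specific region was lost (0) in both kinds of cut list. Shares of all regions under these settings are not given here, so these losses are not read as particular to the 8 genes. With single libraries left out, the counts ranged from 1 to 6 (length, B6), 1 to 4 (length, MSM), 0 to 6 (fold, B6), 1 to 4 (fold, MSM), 1 to 3 (B6-specific regions) and 1 to 2 (MSM-specific regions), the extremes for B6 coming without B6 replicate 2 (6 genes) and those for MSM genes without B6 replicate 1 (4 genes). Of 112 differences of single genes under the other lists and windows, 103 stayed within the pooled SD of the reported value. For *Ugt2b37* that SD rests on the MSM values alone, so its differences carry no weight in this count. Differences in highest fold were the same in every window, and those in length were unchanged in the 5 kb window. The count therefore says little about stability. The sign changed in 5 of the 112 differences, all of lengths that overlapped between the strains. These were *Ugt2b5* (from -244.5 to 632.5 bp) and *Ugt2b1* (from 628 to -15 bp) in lists cut to equal covered length, *Ugt2b34* (from -515 to 44 bp) in the 1 kb window, and *Ugt2b35* (from 124.5 bp to -84.5 at a −log10 q of at least 5 and to -250 in the 1 kb window).

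With a replicate block, in which libraries of equal number were paired, mean differences were those of the unpaired comparison, for example a fold difference of 3.72 at *Ugt2b37*, and the exact sign-flip p ranged from 0.5 to 1. The differences of the pairs shared a sign in 6 genes by length and in 1 by fold. Deviations of equally numbered libraries from their strain means correlated at 0.0832 (length) and -0.00749 (fold) across 11446 genes. Equal numbers thus showed little sign of pairing, and a shared batch was not tested. The lists without read counts, 2 libraries per strain and 1 per hybrid limit what can be called.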
